A study of Drosophila melanogaster with 2 samples.

Results

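Divergent promoters are stretches where 2 protein-coding genes start close together and are transcribed away from each other. The peaks described here are those of a ChIP-seq experiment on the repressor E(spl)m3-HLH that had their summit within 500 bp of at least 1 plus-strand and at least 1 minus-strand transcription start site (TSS) of protein-coding genes. There were 993 such peaks among 5701 in the list that passed the authors' threshold on reproducibility, a share of 17.4% (95% Wilson interval 16.5 to 18.4). Of the rest, 1566 had start sites of 1 strand only within 500 bp, called unidirectional promoter peaks here, and 3142 had none.

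The experiment used whole Drosophila melanogaster embryos of 0 to 24 h, of both sexes, from a transgenic line with E(spl)m3-HLH fused to GFP at its C terminus. There was 1 group of 2 biological replicates, numbered 2 and 3, with no control sample among those analysed here. The precipitation was against GFP by the description of the samples, while the antibody field names E(spl)m3-HLH. The sources used here do not say how the fusion was driven or whether the endogenous gene was intact.

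E(spl)m3-HLH belongs to the Hairy/Enhancer of split family of basic helix-loop-helix repressors, whose genes in the E(spl) complex are switched on by Notch signalling and which recruit the corepressor Groucho. Such proteins are known to bind E-box and N-box sequences. Divergent promoters are common in the compact fly genome, often belong to genes used in most cells, and often carry binding sites of the insulator protein BEAF-32 and of the factor DREF. Because the embryos were whole, binding in more cells and stronger binding per cell cannot be told apart in any value below.

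Each deposited list gave a signal value per peak, the enrichment score of the authors' peak caller on a scale of its own, so signals are compared only within a list. The list of replicate 2 had 30000 peaks and that of replicate 3 had 24781, while pooling both replicates' alignments gave 25791. The thresholded peaks were all present in the pooled list. Read depth is unknown. With 1 group and 2 samples no test over samples was possible, and peaks are not replicates, so the differences below are descriptions given for each replicate beside the pooled value.

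The sequences between the start sites show what these sites look like. In 155 members on arms 2L, 3L, 3R, 4 and X the start sites pointed apart with 60 to 250 bp between them, the summit lay between them and no annotated exon did. The 8 with the highest signal among those are printed from the plus strand of dm6, taken from RefSeq's copy of the assembly, as the bases between the 2 start sites. Capitals mark, on either strand, CGATA (the core bound by BEAF-32), TATCGATA (the DNA replication-related element, DRE, bound by DREF), CANCNCTA (core promoter Motif 7), GGTCACACT (core promoter Motif 1, bound by M1BP) and CACGTG (the class B E-box of Hairy/E(spl) repressors). CGATA lies within the DRE, so a DRE is always counted for both.
Tcs5/CHMP2B: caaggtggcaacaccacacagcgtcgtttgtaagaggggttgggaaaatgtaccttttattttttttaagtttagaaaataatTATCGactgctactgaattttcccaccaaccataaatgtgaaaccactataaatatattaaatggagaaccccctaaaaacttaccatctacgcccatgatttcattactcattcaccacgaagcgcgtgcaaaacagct
CG7601/CIA30: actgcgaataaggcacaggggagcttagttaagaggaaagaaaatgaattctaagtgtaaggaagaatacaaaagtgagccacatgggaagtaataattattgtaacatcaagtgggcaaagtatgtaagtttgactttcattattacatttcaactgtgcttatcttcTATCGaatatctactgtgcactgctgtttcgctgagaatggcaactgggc
CG13390/CG17294: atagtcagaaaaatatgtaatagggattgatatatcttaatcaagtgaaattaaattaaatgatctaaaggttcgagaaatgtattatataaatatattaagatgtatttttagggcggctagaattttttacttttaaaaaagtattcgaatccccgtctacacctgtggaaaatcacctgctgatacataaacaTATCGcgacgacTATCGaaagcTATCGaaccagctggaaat
CG3437/CG3552: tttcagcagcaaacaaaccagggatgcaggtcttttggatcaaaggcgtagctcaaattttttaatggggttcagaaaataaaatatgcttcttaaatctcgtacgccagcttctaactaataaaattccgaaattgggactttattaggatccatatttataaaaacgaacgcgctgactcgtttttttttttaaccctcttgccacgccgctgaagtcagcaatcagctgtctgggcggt
Coq4/CG32176: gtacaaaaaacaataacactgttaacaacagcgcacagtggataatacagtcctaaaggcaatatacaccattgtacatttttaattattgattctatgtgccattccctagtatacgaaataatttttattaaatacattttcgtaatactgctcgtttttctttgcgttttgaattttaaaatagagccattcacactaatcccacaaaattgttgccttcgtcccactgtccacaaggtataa
Mnat9/CG1792: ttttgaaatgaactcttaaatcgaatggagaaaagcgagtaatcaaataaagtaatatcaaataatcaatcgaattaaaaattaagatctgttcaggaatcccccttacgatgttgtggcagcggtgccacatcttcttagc
fws/Lamtor3: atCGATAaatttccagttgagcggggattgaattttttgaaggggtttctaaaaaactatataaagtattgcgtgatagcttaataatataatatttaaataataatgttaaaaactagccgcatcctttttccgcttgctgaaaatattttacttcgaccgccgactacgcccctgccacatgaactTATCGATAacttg
Bdp1/CG6565: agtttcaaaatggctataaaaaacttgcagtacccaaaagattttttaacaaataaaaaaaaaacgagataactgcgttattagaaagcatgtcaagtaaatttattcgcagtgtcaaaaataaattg

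These stretches lay at chr3L:5139396-5139618, chr3R:29736746-29736964, chr2L:8376798-8377034, chr3L:9457670-9457911, chr3L:17433622-17433867, chr3R:31616161-31616302, chr2L:17481030-17481230 and chr2L:13373891-13374018, in the order printed. The GC content of the Bdp1/CG6565 stretch was 26.6%, that of CG13390/CG17294 30.8% and that of CG3437/CG3552 40.1%. No CACGTG was present in any of the 8.

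A further 3 stretches, chosen after the values were seen as the strongest remaining of those 155 members with a DRE, Motif 1 or class B E-box near the summit, show the motif-bearing kind. They lay at chr3R:11216288-11216534, chr3L:540615-540850 and chr3R:15333134-15333265.
RpS25/CG4820: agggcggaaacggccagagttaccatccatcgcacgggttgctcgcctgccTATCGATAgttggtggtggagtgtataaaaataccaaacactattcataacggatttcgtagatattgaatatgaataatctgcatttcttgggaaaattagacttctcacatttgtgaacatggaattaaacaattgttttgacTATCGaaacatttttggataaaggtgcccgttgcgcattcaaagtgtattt
klar/BORCS6: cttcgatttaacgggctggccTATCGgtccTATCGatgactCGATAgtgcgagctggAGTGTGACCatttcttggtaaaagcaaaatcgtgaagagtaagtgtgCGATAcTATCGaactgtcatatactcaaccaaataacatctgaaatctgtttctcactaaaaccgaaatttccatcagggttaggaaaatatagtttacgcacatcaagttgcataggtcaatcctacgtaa
Fkbp39/Cyfip: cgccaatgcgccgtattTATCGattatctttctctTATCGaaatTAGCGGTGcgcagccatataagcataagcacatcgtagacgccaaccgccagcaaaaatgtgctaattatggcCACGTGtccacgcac

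Signals at these 3 were lower than at the 8 above, which the order of choice fixes. RpS25/CG4820, at the gene of a cytoplasmic ribosomal protein, had a pooled signal of 277. Fkbp39/Cyfip had 190 and klar/BORCS6 had 129 with no summit in replicate 2, whereas the weakest of the 8, Bdp1/CG6565, had 1070.

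Divergent-promoter peaks were stronger than the other thresholded peaks in the pooled list and in both replicates. Their median pooled signal was 228 (quartiles 156 and 362), against 187 (136 and 294) for the 4708 other peaks, a ratio of 1.22. In replicate 2 the medians were 148 at divergent promoters and 117 at other peaks (ratio 1.26), and in replicate 3 they were 81.4 and 72.0 (ratio 1.13). The quartile ranges overlapped widely in every list. Against unidirectional promoter peaks the difference was smaller: 228 for divergent-promoter peaks and 204 for unidirectional ones in the pooled list (ratio 1.12), 148 and 129 in replicate 2, and 81.4 and 75.2 in replicate 3. Within the strongest 2850 thresholded peaks the ratio to unidirectional promoter peaks was 0.981, so the direction turned round there.

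**Figure D1:**
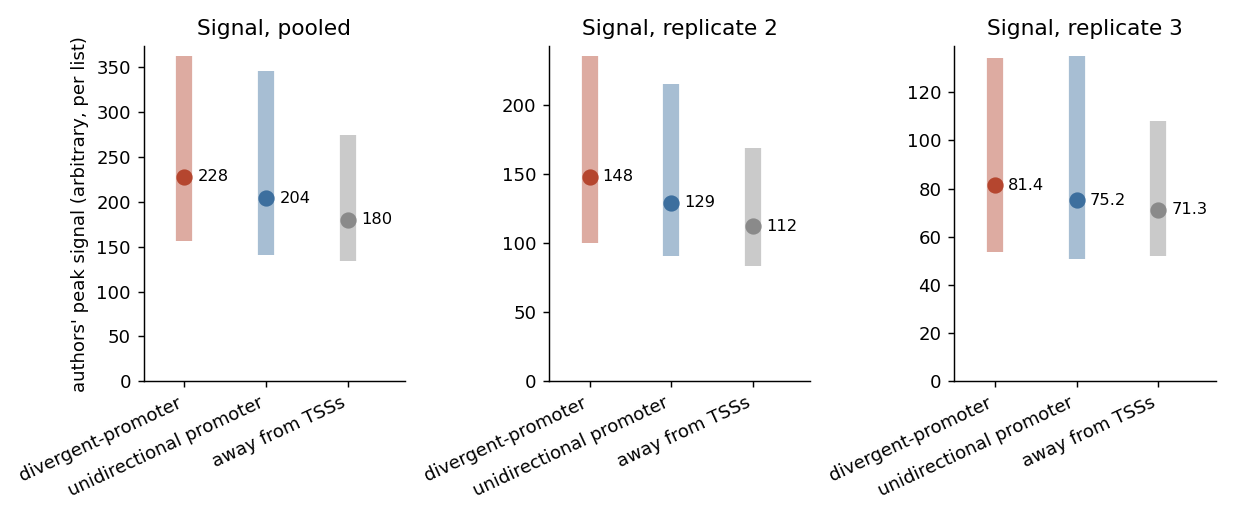
Authors' peak signal (arbitrary units, a scale of its own in each panel) of divergent-promoter peaks, unidirectional promoter peaks and peaks away from protein-coding start sites, in the pooled list and in replicates 2 and 3. Points are medians and bars span the quartiles; divergent-promoter peaks had the highest median in all panels (228, 148 and 81.4), with overlapping bars.

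The share of divergent-promoter peaks was larger among stronger peaks, as was that of unidirectional promoter peaks. Divergent-promoter peaks made up 7 of the 20 strongest thresholded peaks (35.0%, interval 18.1 to 56.7), 131 of the strongest 500 (26.2%, 22.5 to 30.2) and 119 of the weakest 1000 (11.9%, 10 to 14.1). Unidirectional promoter peaks made up 40%, 35.0% and 25.6% of the same slices, and 27.5% of the whole list. Among the strongest 500 peaks of the single replicates, divergent-promoter peaks were 26.0% in replicate 2 and 24.0% in replicate 3. Below the threshold of the pooled list, 858 of 20090 peaks met the same rule (4.27%).

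The strongest member lay between Art3, an arginine methyltransferase gene, and mRpS10, the gene of a mitochondrial ribosomal protein (chr3R:15229314-15229753). Its signal was 2703 pooled, 1665 in replicate 2 and 1053 in replicate 3. The next lay at Chro, encoding the chromosomal protein Chromator, and Ssl1, a subunit of the general transcription factor TFIIH, with 2664 pooled, 1599 in replicate 2 and 1066 in replicate 3. The third, mRpS23 with CenG1A, which encodes a GTPase-activating protein, had 2532 pooled, 1483 in replicate 2 and 1064 in replicate 3. Tcs5, a kinase gene of tRNA modification, and CHMP2B, of the ESCRT-III membrane-remodelling complex, shared a peak of 2456 pooled, 1457 in replicate 2 and 1006 in replicate 3.

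A further 7 of the 12 strongest members had pooled signals from 1629 to 1840. They lay at Pdrg1/Pal1, CG7601/CIA30, mRpL23/CG9004, Atat/Shc, tank/CG12194, CG13390/CG17294 and Pex11ab/CG8320. CIA30 encodes an assembly factor of respiratory complex I, Atat an alpha-tubulin acetyltransferase and Shc an adaptor of receptor tyrosine kinases. Of the 12 summits, 7 lay between genes, 3 in a non-coding part of an exon and 2 in an intron. Genes of mitochondrial ribosomal proteins were at 3 of the 12.

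Members were found again in the replicates' own lists about as often as thresholded peaks in general. A summit within 100 bp was present in replicate 2 for 983 of 993 members (99.0%), beside 98.6% of all thresholded peaks, and in replicate 3 for 966 (97.3%), beside 97.2%. Both replicates held 956 (96.3%, interval 94.9 to 97.3), beside 96.0% of all thresholded peaks. None was missing from both lists. These shares are high by the way the list was made, since it is cut from the pooled alignments of the same replicates. Most members without a summit still overlapped a peak: 987 of 993 overlapped one in both replicates.

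Across the 956 members in both lists, Spearman's rho between the replicates' signals was 0.860 and Pearson's r on log2 signal was 0.888, beside 0.804 and 0.860 for the 4517 other peaks in both. The 1495 unidirectional promoter peaks among those had 0.843 and 0.885, close to the values of members. These correlations run across peaks of 2 samples and share the selection by pooled signal. Members ranked higher in replicate 2 than in replicate 3 in 578 of 956 cases, unidirectional promoter peaks in 843 of 1495 and all other peaks in 2158 of 4517. The strongest 5701 peaks of both replicates held 818 members (82.4%), 1230 unidirectional promoter peaks (78.5%) and 3653 of all other peaks (77.6%).

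**Figure D2:**
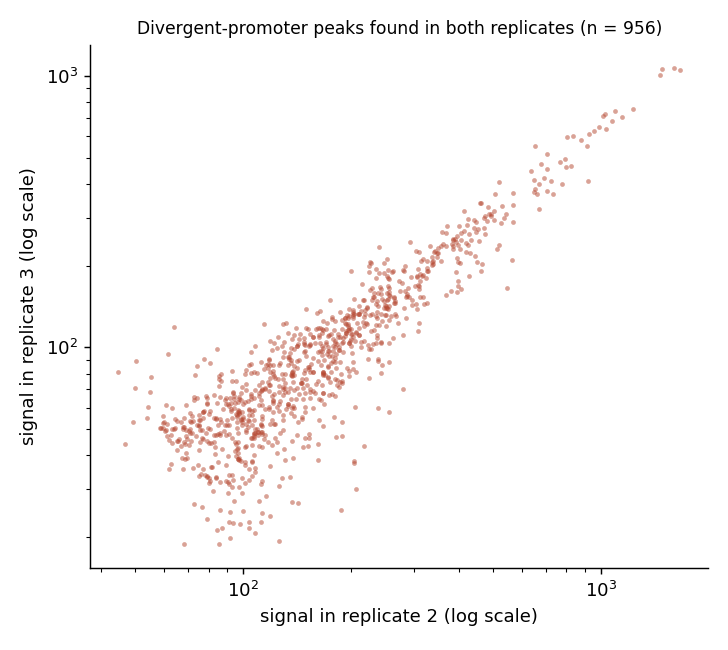
Signal of the 956 divergent-promoter peaks found in both replicates, in replicate 2 (x axis, log scale) and replicate 3 (y axis, log scale); each point is 1 peak. The strongest points, up to 1665 in replicate 2 and 1066 in replicate 3, lie close to a line, and weaker peaks scatter more widely.

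The strongest members absent from a replicate's list by the 100 bp rule were few. Snx21/aph-1 (chr2L:2765621-2765971) had 612 pooled and 421 in replicate 2 and no summit in replicate 3. aph-1 encodes a subunit of gamma-secretase, the protease that releases the Notch intracellular domain. A second member at the same pair was found in both replicates, with 400 pooled, 228 in replicate 2 and 205 in replicate 3. Stt3B/CG11839 (276 pooled, 195 in replicate 2) and HtrA2/mRpL11 (221 pooled, 144 in replicate 2) had no summit in replicate 3 either. In replicate 2, SH3PX1/vsg (310 pooled, 83.2 in replicate 3), vir/Ice1 (286 pooled, 122 in replicate 3) and wda/Pex11c (243 pooled, 51 in replicate 3) were absent. Of these 6, Stt3B/CG11839 was the only one that overlapped no peak in that replicate's list.

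The 500 bp limit cut through peaks of all strengths. Just inside it were CG44290/CG43447 (farther start site at 499 bp, pooled signal 147), AnxB11/hang (496 bp, 125) and tank/CG12194 (490 bp, 1715). Just outside were beta4GalNAcTB/Cpsf100 (503 bp, 230), ubl/koi (507 bp, 119) and CG10804/CG10802 (509 bp, 281).

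The rule did not ask that the genes be transcribed apart. Nearest start sites pointed away from each other in 975 members and overlapped or faced each other in 18. How common each arrangement is in the annotation is not given here. In 839 of the 975 (86.1%) the summit lay between the 2 start sites. Unidirectional promoter peaks had the summit upstream of the nearer start site in 1371 of 1566 cases (87.5%), a similar share. The start sites were a median of 299 bp apart (quartiles 225 and 402). The nearer start site was a median of 87.0 bp from the summit, and the farther one 212 bp. The plus-strand gene was the closer one in 517 members, the minus-strand gene in 470, and 6 were equally far. Summits lay between genes in 694 members (69.9%), in a non-coding part of an exon in 197, in an intron in 98 and in a coding exon in 4. For unidirectional promoter peaks 806 of 1566 (51.5%) lay between genes.

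The 993 members had 914 distinct pairs of closest genes, and 78 pairs held 2 or more members, so members were not all at different pairs. Members reached 1884 genes. Exactly 2 genes lay within 500 bp of 943 members, 3 genes of 44 members and 4 or more of 6 members, with 10 genes at most.

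Among members with start sites pointing apart, signal was highest at 200 to 300 bp between them and lowest beyond 500 bp. The 18 members with start sites that overlapped or faced each other had a median pooled signal of 181. The median pooled signal was 216 for 100 members with start sites up to 100 bp apart, 221 for 95 at over 100 up to 200 bp, and 267 for 298 at over 200 up to 300 bp. It was 214 for 236 members at over 300 up to 400 bp, 202 for 135 at over 400 up to 500 bp and 183 for 111 at over 500 up to 1000 bp. The 200 to 300 bp class was the highest in replicate 2 (173) and in replicate 3 (99.3) as well. Spearman's rho between distance and signal over members with start sites pointing apart was -0.107 in the pooled list (n = 975), -0.113 in replicate 2 and -0.0861 in replicate 3, a weak relation across peaks that share libraries.

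Seen from the annotation, 2462 pairs of neighbouring protein-coding genes had start sites pointing apart and up to 1000 bp between them. A thresholded peak with its summit within 500 bp of both start sites was present at 898 of them (36.5%, interval 34.6 to 38.4). The share was 32.8% of 408 pairs up to 100 bp apart, 29.9% of 334 at over 100 up to 200 bp, 53.5% of 512 at over 200 up to 300 bp, 52.9% of 367 at over 300 up to 400 bp, 43.0% of 242 at over 400 up to 500 bp and 15.4% of 599 at over 500 up to 1000 bp. The wider the pair, the shorter the stretch that lies within 500 bp of both start sites, so a fall at the widest distances follows from the rule.

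**Figure D3:**
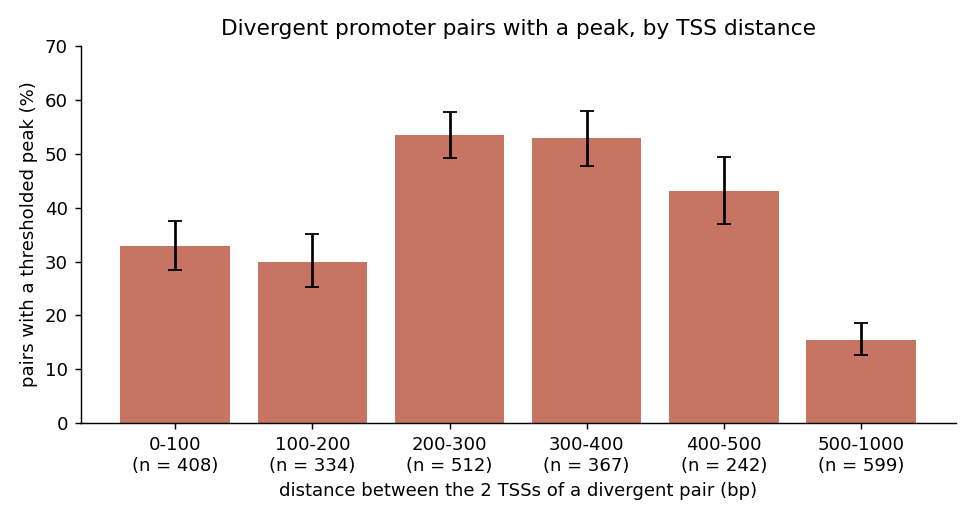
Share of annotated divergent protein-coding promoter pairs with a thresholded peak (y axis, %) by the distance between the start sites of the pair (x axis, bp), with 95% Wilson intervals. Pairs 200 to 400 bp apart had the highest shares (53.5% and 52.9%), above pairs up to 200 bp apart.

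Of the 1564 pairs with no thresholded peak, 575 had a pooled-list peak below the threshold, 344 had a peak in both replicates' lists and 810 had none in any list. Genes in a pair had a thresholded summit within 500 bp in 2042 of 4875 cases (41.9%), against 1197 of 9070 (13.2%) for genes in no pair, and 23.2% of all 13945 protein-coding genes did. Being in a pair brings 2 start sites per stretch, so the first share is over genes that share peaks.

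Members were a smaller share of the peaks on X than on the other large arms. Members were 111 of 1072 thresholded peaks on X (10.4%, interval 8.67 to 12.3), 195 of 1039 on 2L (18.8%), 181 of 973 on 2R (18.6%), 210 of 1235 on 3L (17.0%) and 295 of 1362 on 3R (21.7%). Annotated pairs had a thresholded peak in 26.4% of 386 cases on X (interval 22.3 to 31.0), 37.4% of 481 on 2L, 32.1% on 2R (28.2 to 36.3), 39.1% of 478 on 3L and 44.3% of 605 on 3R. The intervals of X and 2R overlapped, and the share of genes in a pair was 34.9% on X and 35.1% on 3R. The members on X had a median pooled signal of 180, against 245 on 2L, 214 on 2R, 260 on 3L and 225 on 3R. Whether the copy number of X in embryos of both sexes bears on these values was not tested.

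Motifs were searched in windows of 101 bp around summits, on both strands. CGATA was present in 270 of 993 member windows (27.2%, interval 24.5 to 30), against 19.3% of unidirectional promoter peaks, 13.4% of all other thresholded peaks and 11.3% of all windows of that length on the 6 arms. The DRE was present in 53 members (5.34%), against 2.36% of unidirectional and 0.892% of all other peaks, and 0.275% of all windows. Motif 7 was present in 117 members (11.8%), against 6.58% of unidirectional and 3.93% of all other peaks, and 2.48% of all windows. Motif 1 was present in 14 members (1.41%), against 0.766%, 0.361% and 0.0975% of the same sets in that order. Annotated divergent pairs without a thresholded peak, taken at their midpoint, had CGATA in 25.3%, the DRE in 5.18%, Motif 7 in 5.75% and Motif 1 in 2.62%. Pairs with a thresholded peak, taken at their midpoint in the same way, had CGATA in 21.8%, the DRE in 4.34%, Motif 7 in 7.57% and Motif 1 in 1.34%. CGATA and the DRE were thus no more frequent at divergent pairs with a peak than at pairs without. TATAAA, the TATA box, was present at 29.3% of pairs with a peak, against 20.3% of pairs without. Around summits it was present in 22.6% of members, against 19.3% of unidirectional promoter peaks and 21.8% of all other peaks. Peaks away from start sites had it in 23.0% and all windows in 11.7%. Its letters hold no G or C.

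**Figure D4:**
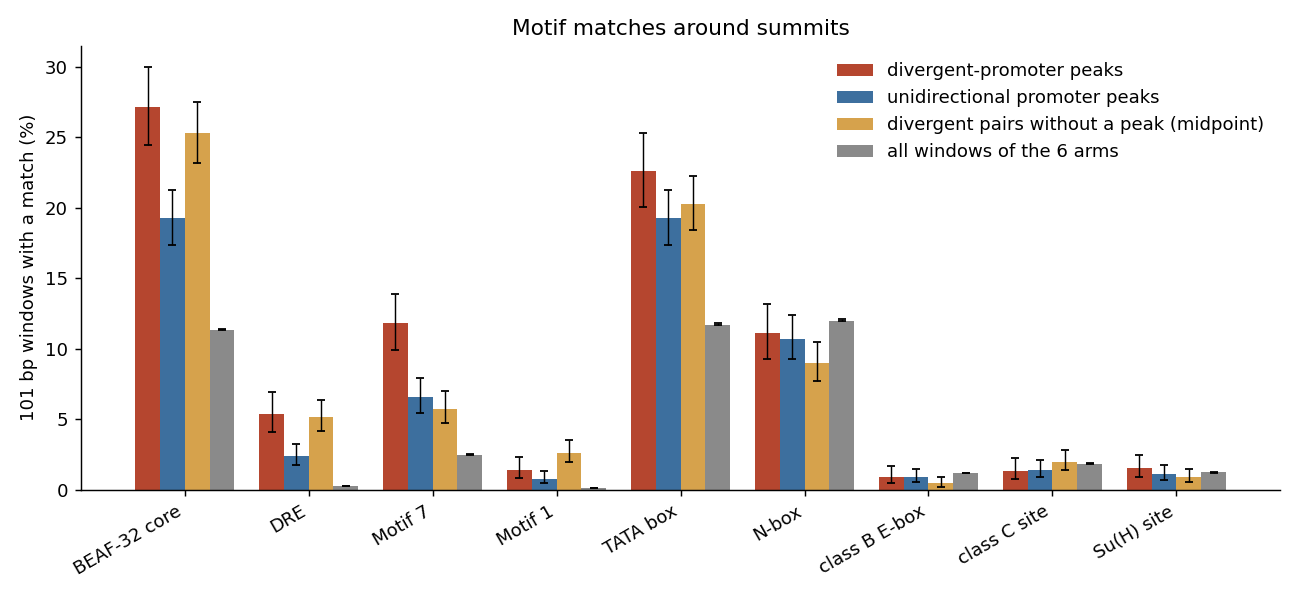
Share of 101 bp windows with a match on either strand (y axis, %) for 9 motifs, with 95% Wilson intervals, at divergent-promoter summits, unidirectional promoter summits, midpoints of divergent pairs without a thresholded peak and all windows of the 6 arms. CGATA (BEAF-32 core), DRE and Motif 7 had higher shares at divergent-promoter peaks than at unidirectional promoter peaks, and the class B E-box reached at most 1.17% in any set shown.

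The sequences known for E(spl) repressors had shares at members close to those at other peaks and at or below those over all windows. CACGTG was present in 9 windows (0.906%, interval 0.478 to 1.71), against 0.894% of unidirectional and 0.637% of all other peaks, and 1.17% of all windows. CACGCG, another site of this family, was present in 13 members (1.31%), against 1.15% of all other peaks and 1.84% of all windows. The N-box CACNAG was present in 11.1% of members, against 9.41% of all other peaks and 12% of all windows. CACGAG, each match of which is also an N-box, was present in 1.41% of members, against 1.30% of all other peaks. At midpoints of divergent pairs CACGTG was present in 12 with a thresholded peak (1.34%, interval 0.766 to 2.32) and 7 without (0.448%, 0.217 to 0.921). These counts are small and the intervals overlapped. CACGCG ran the other way, with 0.891% and 1.98%, as did the N-box, with 7.02% and 9.02%. CACGAG had 1.11% and 0.959%. Windows of members had a median GC content of 32.7%, against a mean of 42.2% over all windows, which bears on these GC-containing letters.

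Of the further motifs, the E-box CAGCTG was present in 5.34% of members, against 3.21% of all other peaks. Unidirectional promoter peaks had it in 4.34% and all windows in 4.24%. At midpoints of divergent pairs it was present in 5.57% with a thresholded peak and 7.42% without. The E-box CAGGTG was present in 3.32% of members, against 2.46% of all other peaks and 3.99% of all windows. The Su(H) site GTGGGAA, bound by the Notch effector, was present in 15 members (1.51%), against 0.892% of all other peaks and 1.23% of all windows. At the replicates' own summits it was present in 1.22% of members in replicate 2 and 0.828% in replicate 3. The Initiator TCAGTT was present in 4.53% of members, against 6.54% of all other peaks, and GAGAG, bound by GAGA factor, in 6.95%, against 8.92%. Core promoter Motif 6 (TGGTATTT) was present in 1.21% of members, against 1.27% of all other peaks. CAGGTAG, bound by the early activator Zelda, was present in 1 member (0.101%), against 0.510% of all other peaks. At the replicates' own summits it was present in 4 members in replicate 2 (0.407%) and 3 members in replicate 3 (0.311%).

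Of the 16 motifs, CGATA, the DRE and Motif 7 were more frequent at the weakest members with intervals that did not overlap. CGATA was present in 13.7% of the 248 strongest members (interval 9.98 to 18.5), against 33.5% of the 248 weakest (27.9 to 39.6). The DRE was in 1.21% of the strongest, against 7.26% of the weakest, and Motif 7 in 6.85%, against 16.1%. TATAAA ran the other way, with 29.8% of the strongest and 16.9% of the weakest. The E-box CAGCTG leaned towards the weakest, with 2.02% of the strongest and 6.45% of the weakest. Motif 1 (0.403% and 2.02%), the E-box CAGGTG (2.42% and 4.84%) and the site CACGCG (0.806% and 2.02%) did so too. The N-box (10.1% and 8.87%), class B E-box (1.21% and 0.403%), Initiator (5.65% and 5.24%) and site CACGAG (1.21% and 0.806%) leaned towards the strongest. Intervals overlapped for each motif that only leaned. The 270 members with CGATA had a median pooled signal of 190, against 250 for members without it, with 121 and 163 in replicate 2 and 68.2 and 89.4 in replicate 3. Median GC content at the summit was 30.7% in the 248 strongest members and 35.6% in the 248 weakest. Whether GC content bears on these motif shares was not tested. The split into the 248 strongest and weakest was chosen after the values were seen.

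Summits of members lay in AT-rich DNA flanked by GC-richer DNA. Median GC content of the 101 bp at the summit was 32.7%, against 48.0% for the mean of the windows centred 400 bp to either side, and the summit was lower in 874 of 993 members (88.0%), against 81.2% of all other thresholded peaks. Unidirectional promoter peaks had 34.2% at the summit and 43.1% at 400 bp, lower at the summit in 74.4%. Peaks away from start sites had 31.7% and 43.6%, lower at the summit in 84.6%. In the 248 strongest members the values were 30.7% and 49.5%, and in the 248 weakest 35.6% and 47.0%. Spearman's rho between GC at the summit and signal was -0.219 in the pooled list (n = 993), -0.223 in replicate 2 and -0.201 in replicate 3, and for unidirectional promoter peaks it was -0.203 in the pooled list (n = 1566). The points share libraries and the base composition of promoters. By the rule, members have a start site of each strand within 500 bp. Windows 400 bp away thus often lie past a start site on both sides. Whether this bears on the GC content of their flanks was not tested.

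**Figure D5:**
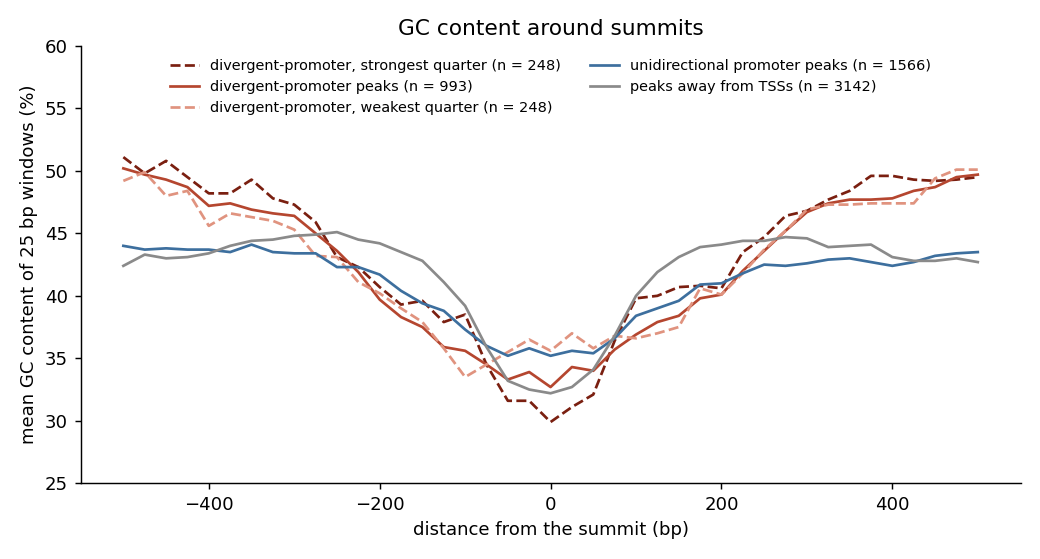
Mean GC content (y axis, %) of 25 bp windows by distance from the summit (x axis, bp) for divergent-promoter peaks (all, 248 strongest, 248 weakest), unidirectional promoter peaks and peaks away from start sites. All curves dip at the summit, and beyond about 300 bp the flanks of divergent-promoter peaks lie higher than those of the other sets, while at 200 bp they lie lower.

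Gene lists were set beside the share over all genes and, since members need start sites on both strands, over genes in an annotated pair. Of all 13945 protein-coding genes, 1884 (13.5%) were at a member, and of the genes in an annotated pair 37.3% were. Mitochondrial ribosomal protein genes were at a member in 34 of 73 cases (46.6%, interval 35.6 to 57.9), with mRpS10 and mRpS23 the strongest. Of these genes 79.5% were in an annotated pair, and 58.6% of those in a pair were at a member. Cytoplasmic ribosomal protein genes were at a member in 31 of 92 cases (33.7%, interval 24.9 to 43.8), and 56.4% of those in a pair were. The strongest were RpS27 with Nup37 (650 pooled, 430 in replicate 2, 222 in replicate 3) and RpL34b with CG8132 (643 pooled, 385 and 251). RpL genes with near-identical copies elsewhere, such as RpL34a and RpL34b, may share reads.

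Aminoacyl-tRNA synthetase genes, whose products load amino acids onto tRNA, were at a member in 12 of 33 cases (36.4%; 52.2% of those in a pair), with SerRS (656 pooled, 407 and 248) and GluProRS (651 pooled, 371 and 280) the strongest. Mediator subunit genes, of the complex that links activators to RNA polymerase II, were at one in 9 of 25 (36.0%; 50% of those in a pair), with MED30 (798 pooled) and MED27 (733 pooled) the strongest. Genes of ESCRT and Vps proteins, which sort membrane proteins to lysosomes, were at one in 10 of 28 (35.7%; 52.6% of those in a pair), among them CHMP2B (2456 pooled) and Vps33B (1067 pooled). Nucleoporin genes were at one in 7 of 21 (33.3%), and 85.7% of them were in a pair, of which 38.9% were at a member, near the 37.3% of all genes in a pair. They had Nup37 (650 pooled) and Nup98-96 (453 pooled) as the strongest. TFIID subunit genes were at one in 5 of 15 (33.3%; 41.7% of those in a pair), among them Taf5 (474 pooled) and Taf2 (319 pooled).

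Vacuolar ATPase genes were at a member in 9 of 33 cases (27.3%), respiratory chain and ATP synthase genes in 20 of 87 (23.0%) and proteasome subunit genes in 10 of 48 (20.8%). Of those in a pair, the shares were 64.3% of vacuolar ATPase, 42.9% of respiratory chain and 38.5% of proteasome genes. The strongest were Vha100-2 with Vti1b (708 pooled) and Vha16-5 (497), ND-MWFE (625) and ND-ASHI (592), and Rpn3 (493) and Rpn5 (417). Translation factor genes were at a member in 6 of 51 (11.8%, interval 5.51 to 23.4), and this interval held the 13.5% of all genes. Among the 23 in a pair, 26.1% were at a member, beside 37.3% of all genes in a pair. A thresholded summit lay within 500 bp of 33.3% of the 51, against 23.2% of all genes. Their strongest was eIF4EHP, a cap-binding repressor of translation (1245 pooled, 798 in replicate 2, 462 in replicate 3). Sm and LSm, Mcm and Orc, COP9 signalosome and cell cycle lists had 2 genes each at a member, of 9, 12, 8 and 15. Their shares had intervals of 6.32 to 54.7%, 4.70 to 44.8%, 7.15 to 59.1% and 3.74 to 37.9% in that order. Each interval held the 13.5% of all genes. Of their genes in a pair, 28.6%, 28.6%, 40% and 40% were at a member, beside 37.3% of all genes in a pair. Their strongest were LSm1 (214) and LSm7 (180), Mcm2 (361) and Mcm5 (123), CSN5 (280) and CSN3 (187), and Cdk1 (271) and fzy (115).

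The signalling lists were short, and their shares have wide intervals. Notch pathway genes were at one in 4 of 20 cases (20%, interval 8.07 to 41.6), beside 13.5% of all genes, and 36.4% of those in a pair were, beside 37.3% for all genes in a pair. The strongest was aph-1 (612 pooled, with no summit in replicate 3), followed by Nle (223 pooled, 146 in replicate 2 and 76.3 in replicate 3). In the E(spl) complex 1 of 13 genes was at a member: E(spl)mdelta-HLH, a repressor gene of the same family as the tagged protein, with CG43116 on the other strand (chr3R:25997085-25997500). This peak had 271 pooled, 163 in replicate 2 and 109 in replicate 3. It was the 1 gene of the complex in an annotated pair, and 6 of the 13 had a thresholded summit within 500 bp, the tagged gene E(spl)m3-HLH and gro among them.

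Of 13 EGFR pathway genes 3 were at a member (23.1%, interval 8.18 to 50.3), with the ligand Krn (422) and Ras85D (341) the strongest, and of 15 Wingless pathway genes 3 were (20%, interval 7.05 to 45.2), with Apc2 (257) and Apc (131). No gene was at a member among 14 of the Dpp pathway, 8 Hox genes, 119 chemoreceptors, 95 cuticle proteins and 85 cytochrome P450 genes. A count of 0 allows up to 21.4%, 37.5%, 2.52%, 3.16% and 3.53% of these lists in that order, by the limit of 3 counts. These lists differ in how many genes were in an annotated pair: no Hox gene was, and 13.4% of chemoreceptor, 11.6% of cuticle protein, 15.3% of cytochrome P450 and 35.7% of Dpp pathway genes were in one, against 35.0% of all protein-coding genes.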

How the data were processed

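Whole embryos of the tagged line were profiled by ChIP-seq in 2 biological replicates. According to the deposited listings, the authors made peak calls per replicate and on pooled alignments, against a control file, and derived a list by the irreproducible discovery rate procedure. The deposited signal per peak is the authors' enrichment value, on a scale set within each list. The aligner and caller were not given in the sources read here, and depth is unknown. The 4 lists on dm3 and the control were not used.

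Summits were set against 19607 start sites of 13945 protein-coding genes on 6 arms (Ensembl release 115, dm6), with python 3.11.15, pandas 2.3.3, numpy 2.4.6 and scipy 1.17.1. Of 30593 annotated start codons, 99.8% read ATG in the sequence used. No peak lay past the end of an arm. The assignment of summits, the matching and the motif search were tested on simulated positions. Shares carry Wilson intervals at 95%, which cover the counting of peaks or genes and nothing else. 16 motifs and 24 gene lists, taken by symbol, were used.

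The members, lists and motifs were chosen with earlier results of these data known. Named members were the 12 strongest, up to 3 of the strongest missing from each replicate, up to 2 of the strongest per gene list, and the 3 on either side of the 500 bp limit. Mentions of further members come from the printed sequences. Of the items these rules pick, 1 named member and 1 sequence are not reported here. Alternatives changed the distance limit, the start sites used, the list, the replicate, the match distance, the motif window and the spacing of pairs.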

Additional observations from a re-analysis of the deposited data

How the results depend on the processing

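No paired analysis was possible because the series holds 1 group. The number of divergent-promoter peaks was 916 with 1 start site per gene, 975 with start sites required to point apart and 1232 at 1000 bp. It was 580 at 250 bp, 596 among the strongest 2850 peaks and 387 where the interval had to cover a start site of each strand. It ranged from 940 to 1010 in the strongest peaks of either replicate alone. The median signal ratio over all other peaks was 1.35 at 250 bp, 1.18 at 1000 bp and 1.07 among the strongest 2850 peaks, with 1.19 to 1.23 when the peaks themselves were taken from a single replicate's list. Over unidirectional promoter peaks it was 1.26 at 250 bp and 1.10 to 1.16 with those same peaks, and it turned round to 0.981 among the strongest 2850 peaks; the cause was not tested.

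The share of members in both replicates was 82.4% with summits within 50 bp, 98.7% within 200 bp, 99.4% by overlap and 82.4% among the strongest peaks of each replicate. The share of pairs with a peak was 43.3% for pairs up to 500 bp apart, 31.5% up to 2000 bp, 42.5% with 1000 bp to both start sites, 22.9% with the strongest 2850 peaks and 34.4% to 37.0% in single replicates. Motif shares were within the interval of the reported value in 31 of 32 cases at the replicates' own summits, the exception being the Su(H) site in replicate 3 (0.828%), and moved with the width of the window. The remaining alternatives were added after the data were seen. Mitochondrial ribosomal protein genes at members were 38.4% to 47.9% in single replicates and 32.9% at 250 bp, while all genes were at 12.8% to 13.7% and 8.50%. Members on X were 10.5% to 11.4% of peaks in single replicates. Depth is unknown, so how far it limits the weaker peaks cannot be given.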

Other observations

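The genes at divergent-promoter peaks were shorter than those at unidirectional promoter peaks, and longer than genes of annotated pairs without a peak. Their median length was 2480 bp (quartiles 1498 and 4503), against 4782 bp (2052 and 12724) for 1355 genes at unidirectional promoter peaks only. All protein-coding genes had a median of 2166 bp, and genes in annotated pairs with no peak within 500 bp had 2031 bp. A single annotated start site was present for 65.7% of genes at divergent-promoter peaks, against 46.5% at unidirectional ones and 73.5% of all protein-coding genes. For genes in annotated pairs with no peak within 500 bp this share was 74.2%. Symbols of the uncharacterised CG kind made up 29.6% of genes at divergent-promoter peaks, against 30.6% at unidirectional ones, 38.8% of genes in annotated pairs with no peak within 500 bp and 43.7% of all protein-coding genes.

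The 18 members whose start sites overlapped or faced each other had a median pooled signal of 181. The strongest was CG4741/Adck1, with 1041 pooled, 654 in replicate 2 and 384 in replicate 3. CG31808/Cyt-c-d followed, with 768 pooled, 479 in replicate 2 and 293 in replicate 3. CG5846/CG4658 had 701 pooled, 421 in replicate 2 and 283 in replicate 3. These were chosen after their values were seen.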
